A study of Homo sapiens with 16 samples.

Results

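The genes described here are KRT5 and its basal-cell partners KRT14 and KRT15, the stress and repair keratins KRT6A, KRT6B, KRT6C, KRT16 and KRT17, and TP63, 9 of the 42665 gene names on the array, of which 8 were tested among 26368 gene names. KRT5 was picked for its fall with HGF from these same arrays, and the other genes were chosen by name as keratins of basal or stressed epithelium and as the transcription factor of basal cells. They were measured in 16HBE, a human bronchial epithelial line immortalised with SV40 large T antigen. 16HBE-WT cells carry unedited MET, and 16HBE-ex14 cells are clone F, a single clone in which CRISPR/Cas9 cut the splice donor of MET exon 14 so that the exon is skipped. HGF (hepatocyte growth factor, the ligand of the receptor MET) was given at 20 ng/ml for 24 h, and cells of all groups had first been kept 2 h without serum. Unstimulated cells are called 16HBE-WT or 16HBE-ex14, stimulated cells carry +HGF in their name, and each of the 4 groups has 4 single-colour arrays, 16 in all. Because the edited cells are a single clone, the edit and the clone cannot be told apart in any comparison of the genotypes.

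Keratins are the intermediate filament proteins of epithelial cells and assemble as pairs of a type I and a type II chain. In the airway, KRT5 (type II) with KRT14 or KRT15 (type I) marks the basal cells, the stem cells of the bronchial lining, and TP63 encodes p63, the factor that maintains their identity. KRT6A, KRT6B and KRT6C (type II) with KRT16 and KRT17 (type I) are induced in wounded, stressed or squamous epithelium. In the RefSeq gene table (GRCh38.p14), KRT6B, KRT6C, KRT6A and KRT5 are neighbours on chromosome 12, KRT14, KRT16 and KRT17 are neighbours on chromosome 17, and KRT15 lies on the same chromosome between KRT13 and KRT19.

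The 9 genes had 11 probes of 60 bases. Each probe had 1 spot per array, and none of these spots carried an outlier or saturation mark. The type I keratins are alike in sequence, so the probes behind the results are shown here, 5′ to 3′, with hg19 positions from the array annotation. The KRT14 probe that gave most signal, on the minus strand of chr17:39740013-39740072, and the KRT16 probe, which spans chr17:39767216-39767364, align without gaps over 43 bases and share 32 of them (74.4%). Capitals mark the aligned bases that differ:
KRT14: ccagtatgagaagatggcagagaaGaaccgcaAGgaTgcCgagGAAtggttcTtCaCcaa
KRT16: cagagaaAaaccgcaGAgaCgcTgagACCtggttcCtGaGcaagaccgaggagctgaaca
The dimmer KRT14 probe (chr17:39742569-39742628), the KRT17 probe (chr17:39776976-39777035) and the TP63 probe (chr3:189586433-189586492, plus strand) aligned with no other probe of these genes at that level, and they are shown because the KRT14 probes disagree below, KRT17 follows KRT14, and TP63 stands apart:
KRT14 second probe: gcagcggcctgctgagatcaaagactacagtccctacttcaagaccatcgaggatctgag
KRT17: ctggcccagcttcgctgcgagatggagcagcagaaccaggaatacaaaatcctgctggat
TP63: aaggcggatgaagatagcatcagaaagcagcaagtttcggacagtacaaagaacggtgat
For KRT5 and KRT6B, the members with the largest fall and the largest rise in 16HBE-ex14, the first 30 bases of the probe are given, from chr12:52908622-52908681 and chr12:52840556-52840615 on the minus strand:
KRT5: catggagattgcctcttctaggcagttgct
KRT6B: ctgcccattatagctacactcaggagttct

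Other transcripts could also hybridise to some of these probes. The brighter KRT14 probe shares a run of 33 bases with a probe annotated only by a transcript number, and the KRT17 probe shares 27 bases with the probe of the pseudogene KRT17P2. Both of these further probes were above background on all 16 arrays. With HGF in 16HBE-ex14 they changed by -0.97 (adjusted p = 0.00697) and by -0.93 (adjusted p = 0.0391) on the log2 scale in the limma fit, beside -0.97 for KRT14 and -1.08 for KRT17. How much of each signal came from each transcript was not tested.

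A level here is the log2 signal of a probe relative to the 75th percentile of its array, so it can be compared between arrays for a probe but not between probes. The 75th percentile ran from 140 to 263 intensity units over the 16 arrays, and the scanner software marked 49% to 60.3% of an array's probes as well above background, that is, clearly brighter than their surroundings. Arrays lay on 2 slides with 2 rows each, and every row held 1 array of each group. The test took in the 34599 of 58201 probes with that mark on 4 or more of the 16 arrays. limma was fitted over all of them, and a call needed both an adjusted p (Benjamini-Hochberg) under 0.05 and a fold change over 1.5. The median change over all tested probes was 0.04 with HGF in 16HBE-WT, 0.05 with HGF in 16HBE-ex14, -0.02 between the genotypes without HGF and close to 0 with it. Of the 11 probes, 9 were tested, standing for 8 genes. The KRT6C probe was above background on 2 of 16 arrays and a second KRT16 probe on 0, and neither was tested. The number of arrays limits the precision of every value. Replicates came from cultures separated by a week, but which array belongs to which week is not given, and p-values measure the spread between these arrays.

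The epithelial markers CDH1, EPCAM, KRT8, KRT18 and KRT19 were all measured, and their summed level lay between 10.6 and 11 (log2) on every array. Such a sum mostly follows its brightest probes, here KRT18 and KRT19, and does not show each marker. CDH1 differed by -0.58 with HGF in 16HBE-ex14 (adjusted p = 0.0347, limma), just short of the fold limit. Of the airway basal markers, KRT5, KRT14, KRT15, TP63 and NGFR were above background on at least 15 arrays and PDPN was not tested. The summed level of these markers, most of which are themselves genes described here, was 3.48 to 3.84 in 16HBE-WT, 3.1 to 3.5 in 16HBE-WT+HGF, 2.4 to 2.65 in 16HBE-ex14 and 2.31 to 2.54 in 16HBE-ex14+HGF. KRT5, picked for its fall, is part of this sum, so the steps of the sum are only a description. With HGF in 16HBE-ex14, KRT14 was called lower (-0.97), while KRT15 (0.42), TP63 (0.43) and NGFR (-0.05) were not called. In such bulk RNA, fewer cells of a type and less RNA per cell cannot be told apart. Of 7 secretory markers 4 were tested and 0 called, and of 6 ciliated markers 4 were tested and 0 called. Of 3 ionocyte markers 2 were tested. FOXI1 fell with HGF in 16HBE-ex14 (log2 -2.31, adjusted p = 0.0118, limma), where only 1 of 4 16HBE-ex14+HGF arrays had it above background. CFTR was above background on all 16 arrays and was not called there (0.05, adjusted p = 0.863), and ASCL3 was above background on no array. Over all tested probes, 2% were called in that comparison. The fibroblast markers COL1A2, COL3A1, DCN and PDGFRA were above background on no array, while COL1A1 and PDGFRB were above it on all 16 and were not called. LUM was above background on all wild-type arrays and on no 16HBE-ex14 array. It passed the filter only through the wild-type arrays, so its difference is given without a test. With the 16HBE-ex14 arrays held at the lowest level called above background, LUM was 3.06-fold lower there without HGF. Of 4 immune markers on the array 3 were tested. CD3E was lower in 16HBE-ex14 without HGF (-0.98, adjusted p = 0.0242, limma), while PTPRC (-0.35) and CD14 (-0.22) were not called, beside 9.4% of all tested probes called. With HGF in both genotypes CD3E was not called (-0.53, adjusted p = 0.219). The part of these markers in the keratin values was not tested. The MET probe gave levels from 4.82 to 5.26 over the 16 arrays and was called in no comparison. Its position relative to the skipped exon was not determined here, so its level gives no check of the edit.

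KRT5 stood at 2.57, 2.31, 2.60 and 3.03 on the 16HBE-WT arrays and at 2.03, 1.85, 1.82 and 2.28 on the 16HBE-WT+HGF arrays. On the 16HBE-ex14 arrays it was at -0.14, 0.33, -0.04 and 0.06, and on the 16HBE-ex14+HGF arrays at -2.04, -1.91, -2.48 and -2.63. The 4 groups formed 4 steps without overlap, from 16HBE-WT at the top to 16HBE-ex14+HGF at the bottom, and KRT5 was well above background on all 16 arrays.

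KRT5 was picked for its fall with HGF, and the choice names no genotype, so all its differences are descriptions without a test. With HGF, KRT5 in 16HBE-ex14 changed by -2.32 on the log2 scale (SE 0.19), which left 20.1% of the signal. Without HGF the difference of 16HBE-ex14 from 16HBE-WT was -2.57 (SE 0.19). With HGF in both genotypes it was -4.26 (SE 0.19), a 19.2-fold gap. With normexp background correction these 3 differences shrank to -1.49, -2.25 and -3.15.

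In 16HBE-WT, HGF came with a KRT5 difference of -0.63 (SE 0.19), or 64.6% of the unstimulated signal. All 4 stimulated arrays lay below all 4 unstimulated arrays, as they did for 1.01% of tested probes, while 1.6% lay wholly above. Across all probes limma called 0 of 34599 (0%) for HGF in 16HBE-WT, with 1694 at an unadjusted p under 0.05. Over the 4 array rows the KRT5 difference ran from -0.78 to -0.46. Since KRT5 was picked for its fall with HGF, neither the rows nor the lack of overlap tests that fall. The HGF response of KRT5 in 16HBE-ex14 minus that in 16HBE-WT was -1.69 (SE 0.26), and -0.89 with normexp.

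**Figure D1:**
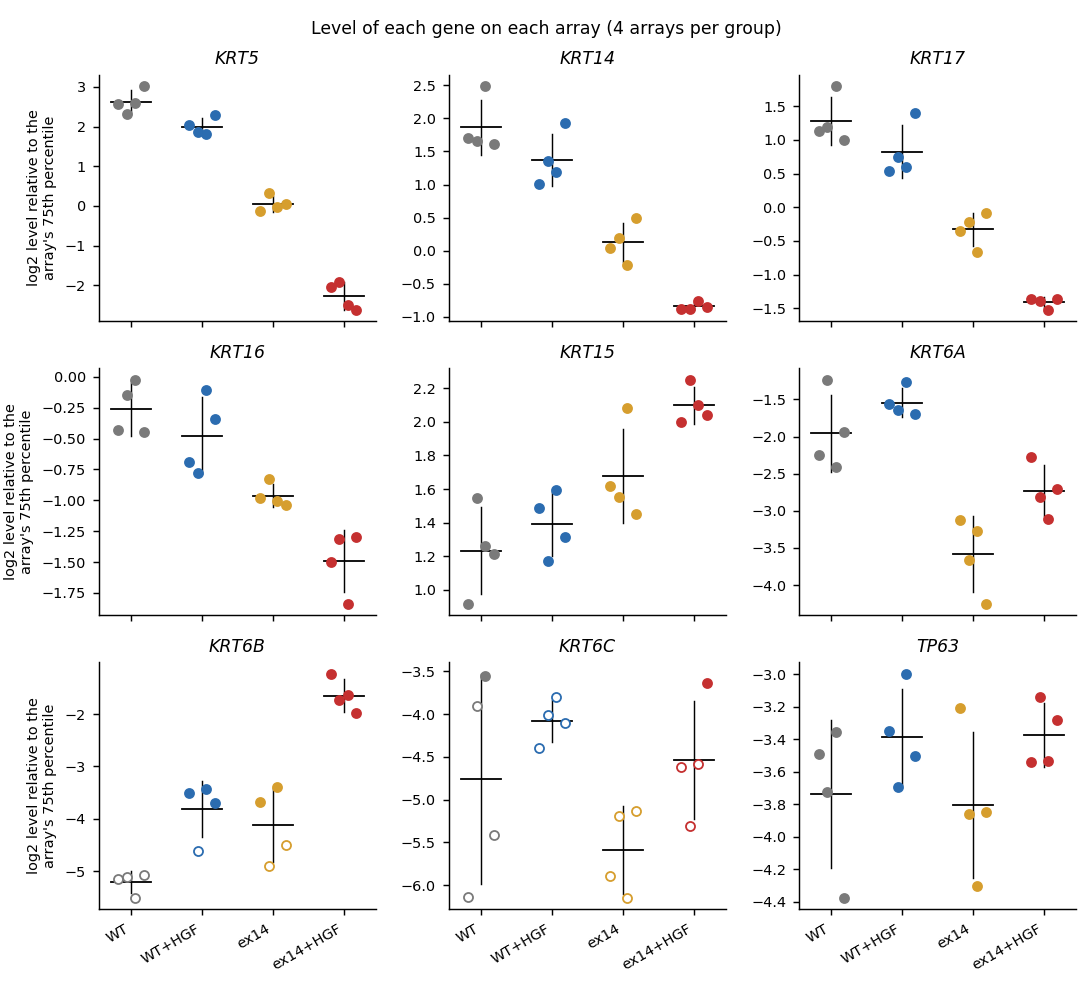
Level of each gene on each of the 16 arrays (log2 relative to the array's 75th percentile; brightest tested probe, or the only probe for KRT6C), with the group mean and SD as lines; filled points were well above background and open points were not. KRT5 steps down through 4 groups without overlap. KRT14 and KRT17 resemble each other, with overlap between the wild-type groups and steps down after them. KRT15 and KRT6B have their highest group mean in 16HBE-ex14+HGF, and TP63 overlaps between all groups.

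KRT14, the usual type I partner of KRT5, was at 1.70, 1.66, 2.49 and 1.61 in 16HBE-WT and at 1.00, 1.36, 1.19 and 1.93 in 16HBE-WT+HGF. It was at 0.04, 0.19, -0.22 and 0.50 in 16HBE-ex14 and at -0.88, -0.89, -0.76 and -0.85 in 16HBE-ex14+HGF. The wild-type groups overlapped, and every 16HBE-ex14+HGF array lay below every 16HBE-ex14 array, which in turn lay below every wild-type array. KRT14 fell with HGF in 16HBE-ex14 by 0.97 on the log2 scale (SE 0.22, adjusted p = 0.0283, limma). The call was near the threshold: it was lost without a filter on dim probes (adjusted p = 0.0587) and when any array of those groups other than 16HBE-ex14 replicate 3 was left out, with an adjusted p between 0.0529 (without 16HBE-ex14 replicate 1) and 0.105 (without 16HBE-ex14 replicate 4). KRT14 was lower in 16HBE-ex14 than in 16HBE-WT, with a difference of -1.74 without HGF (SE 0.22, adjusted p = 9.27e-05) and of -2.21 with it (adjusted p = 1.03e-05).

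The second KRT14 probe was dimmer, at 20.8 to 68.8 intensity units over the 16 arrays. It was lower in 16HBE-ex14 both without HGF (2-fold, SE 0.22 on the log2 scale, adjusted p = 0.00569, limma) and with HGF (2-fold, adjusted p = 0.00491). With HGF in 16HBE-ex14 it changed by -0.37 (adjusted p = 0.502) and was not called. Its arrays did not overlap there, but overlap over all tested probes was counted only for HGF in 16HBE-WT. In the other comparisons a lack of overlap, for any gene here, is therefore only a description. The probes therefore gave the same direction but not the same size, and only the brighter one was called for HGF.

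KRT17, a type I keratin of stressed epithelium, was at 1.14, 1.19, 1.81 and 0.99 in 16HBE-WT and at 0.54, 0.75, 0.60 and 1.40 in 16HBE-WT+HGF. It was at -0.35, -0.22, -0.67 and -0.08 in 16HBE-ex14 and at -1.36, -1.39, -1.53 and -1.37 in 16HBE-ex14+HGF. As for KRT14, the wild-type groups overlapped and the other steps did not. KRT17 fell with HGF in 16HBE-ex14 by 1.08 (SE 0.20, adjusted p = 0.0101, limma), to 47.3% of the unstimulated signal, and kept its call when any array was left out. It was lower in 16HBE-ex14, with a difference of -1.61 without HGF (adjusted p = 8.52e-05) and of -2.24 with HGF (adjusted p = 4.6e-06).

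Levels of KRT14 and KRT17 also lay together within groups. Over the 16 arrays their levels had r = 0.996, and after each group's mean was taken out r was 0.955, given as a description over arrays that share slide, culture and scan. The array with the highest KRT14 level in 16HBE-WT was also the highest for KRT17, and the same held in the 16HBE-WT+HGF and 16HBE-ex14 groups. In 16HBE-ex14+HGF, replicate 3 was the highest array for KRT14 (-0.76) and the lowest for KRT17 (-1.53). For KRT5 the values were lower within groups: its r with KRT14 was 0.956 over all arrays and 0.15 within groups, and with KRT17 it was 0.967 and 0.21.

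**Figure D2:**
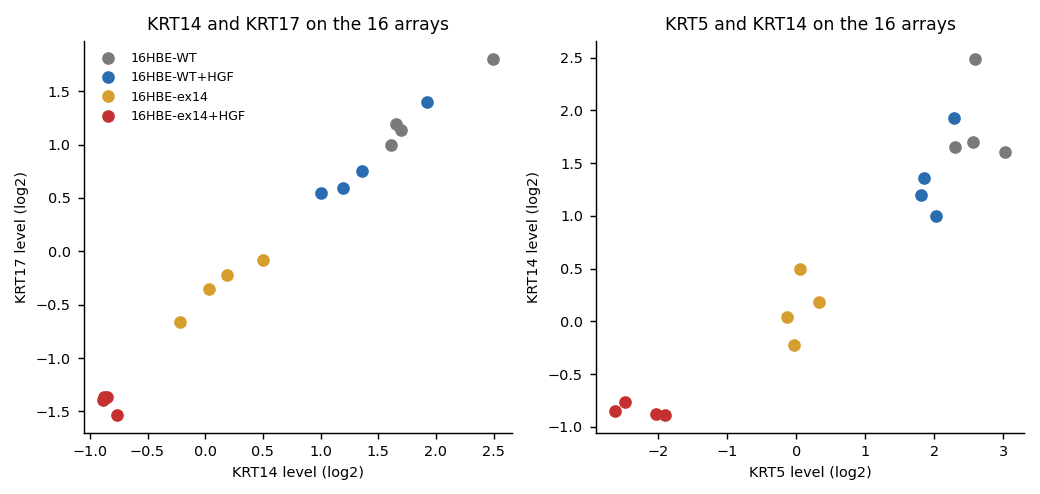
Levels (log2) of KRT17 against KRT14 on the left and of KRT14 against KRT5 on the right, 1 point per array and 1 colour per group. KRT14 and KRT17 follow 1 line between groups, and r within groups was 0.955, although in 16HBE-ex14+HGF the array highest in KRT14 was the lowest in KRT17. For KRT14 and KRT5 r within groups was 0.15.

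KRT16, the usual type I partner of KRT6, was at -0.43, -0.15, -0.02 and -0.45 in 16HBE-WT and at -0.69, -0.78, -0.10 and -0.34 in 16HBE-WT+HGF. It was at -0.98, -0.82, -1.004 and -1.04 in 16HBE-ex14 and at -1.50, -1.31, -1.84 and -1.30 in 16HBE-ex14+HGF. The steps were smaller than those of KRT14 and KRT17 but ran the same way, with overlap only between the wild-type groups. With HGF in 16HBE-ex14 the difference was -0.53 (SE 0.16, adjusted p = 0.111, limma) and was not called. KRT16 was lower in 16HBE-ex14, with a difference of -0.70 without HGF (SE 0.16, adjusted p = 0.00745) and of -1.01 with HGF (adjusted p = 0.00048). Scaling to the array median instead turned these calls around: the HGF difference of -0.69 was then called and the genotype difference without HGF, -0.56, was not.

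KRT15, the other type I basal keratin, went the opposite way. Its levels were 0.91, 1.55, 1.26 and 1.21 in 16HBE-WT, 1.49, 1.17, 1.60 and 1.32 in 16HBE-WT+HGF, 1.62, 1.55, 2.08 and 1.45 in 16HBE-ex14, and 2.00, 2.25, 2.10 and 2.04 in 16HBE-ex14+HGF. Neighbouring groups in this order overlapped, and only 16HBE-ex14+HGF stood wholly above both wild-type groups. KRT15 was higher in 16HBE-ex14+HGF than in 16HBE-WT+HGF by 0.71 (SE 0.15, adjusted p = 0.00463, limma). The differences with HGF in 16HBE-ex14, 0.42 (adjusted p = 0.199), and between the genotypes without HGF, 0.44 (adjusted p = 0.0608), were not called.

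KRT6A, a type II keratin of wounded epithelium, was lower in 16HBE-ex14 than in 16HBE-WT, and its differences with HGF were not called. It was at -2.25, -1.23, -2.41 and -1.94 in 16HBE-WT, at -1.56, -1.64, -1.26 and -1.70 in 16HBE-WT+HGF, at -3.12, -3.67, -3.27 and -4.26 in 16HBE-ex14 and at -2.28, -2.82, -3.10 and -2.71 in 16HBE-ex14+HGF. All 16HBE-ex14 arrays lay below all wild-type arrays without HGF, the 16HBE-ex14+HGF arrays lay just above the unstimulated ones, and the wild-type arrays with and without HGF overlapped. The genotype difference was -1.62 without HGF (SE 0.27, adjusted p = 0.000889, limma) and -1.18 with HGF (adjusted p = 0.00663). The difference with HGF in 16HBE-ex14, 0.85 (SE 0.27, adjusted p = 0.134), was not called.

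KRT6B, its close relative, was the member that rose most. In 16HBE-WT it was well above background on 0 of 4 arrays, at -5.14, -5.10, -5.51 and -5.07. With HGF it was above background on 3 of 4 wild-type arrays, at -3.50, -4.60, -3.43 and -3.70, and in 16HBE-ex14 on 2 of 4, at -3.68, -4.90, -3.40 and -4.49. On all 4 16HBE-ex14+HGF arrays it was above background, at -1.23, -1.74, -1.64 and -1.99, higher than on any other array. KRT6B rose with HGF in 16HBE-ex14 by 2.47 (SE 0.32, adjusted p = 0.00156, limma), and it was higher in 16HBE-ex14+HGF than in 16HBE-WT+HGF by 2.16 (adjusted p = 0.000252). With normexp these differences were 0.90 and 0.61 and were still called, and since 2 of the 4 unstimulated 16HBE-ex14 arrays were not above background, the fold with HGF is approximate. With the 16HBE-WT arrays held at the lowest level called above background, KRT6B was 1.4-fold higher in 16HBE-WT+HGF. With normexp that difference was 0.21, or 1.16-fold, so 1.4-fold is not a lower bound under every background correction. The fitted difference between the genotypes without HGF was 1.09 (adjusted p = 0.0267), and with normexp background correction it was -0.082, so it has no settled direction. That call was also lost without a filter on dim probes (adjusted p = 0.0514), with only the 2 groups fitted (0.0602), and without 16HBE-ex14 replicate 1 (0.0746) or 3 (0.0861) or 16HBE-WT replicate 1 (0.0523) or 3 (0.0725). In 16HBE-WT the fitted HGF difference was 1.40 (adjusted p = 0.628) and was not called. All stimulated arrays lay above all unstimulated ones, as they did for 1.6% of tested probes.

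KRT6C, the remaining member of that cluster, was above background on 1 16HBE-WT array and 1 16HBE-ex14+HGF array, and its levels ran from -6.15 to -3.56.

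TP63 was low but above background on all 16 arrays, at 8.5 to 22.9 intensity units. Its levels were -3.49, -3.72, -3.36 and -4.38 in 16HBE-WT, -3.35, -3.69, -3.00 and -3.51 in 16HBE-WT+HGF, -3.21, -3.86, -4.30 and -3.85 in 16HBE-ex14, and -3.54, -3.14, -3.53 and -3.28 in 16HBE-ex14+HGF. All groups overlapped. TP63 was not called in any comparison, and the 95% interval of its difference was -0.17 to 0.87 with HGF in 16HBE-WT, -0.09 to 0.95 with HGF in 16HBE-ex14, -0.59 to 0.45 between the genotypes without HGF and -0.51 to 0.54 with it. These intervals are wide, so a modest change of TP63 was not detectable with 4 arrays a group. Its r with KRT5 over the 16 arrays was -0.21.

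**Figure D3:**
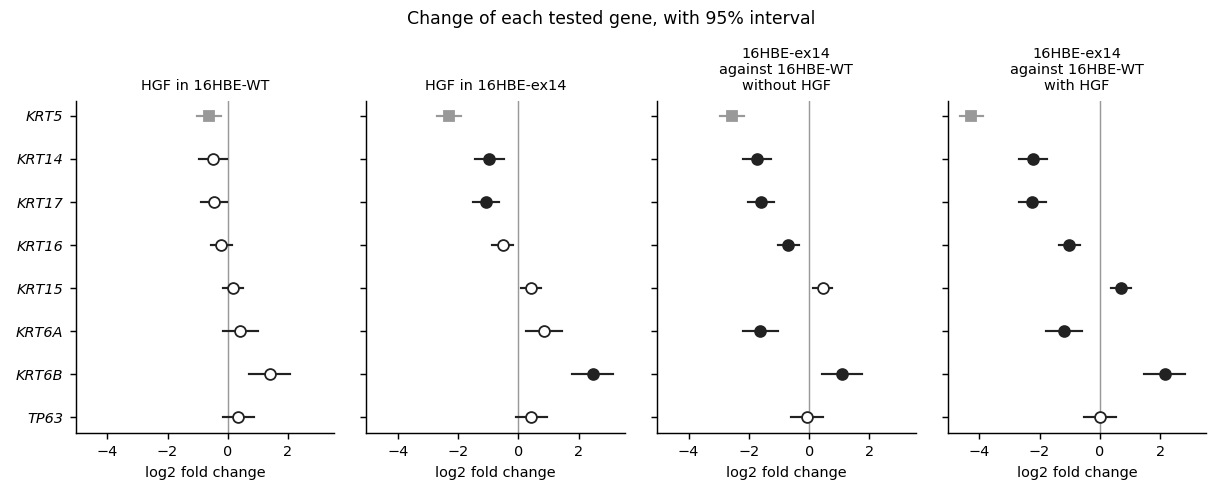
Log2 fold change of the 8 tested genes in each comparison of groups, with 95% intervals from the limma fit over 16 arrays; filled circles passed both thresholds, open circles did not, and grey squares are KRT5 values given without a test. The KRT5 intervals are no test either, since KRT5 was picked from these arrays. KRT14, KRT17 and KRT5 lie to the left with HGF in 16HBE-ex14 while KRT6B lies to the right, and TP63 stays across 0 throughout.

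Counted without KRT5, 2 of 7 tested members fell with HGF in 16HBE-ex14 (KRT14, KRT17) and 1 rose (KRT6B), where 0.957% of all tested probes were called lower and 1.05% higher. Between the genotypes without HGF, 4 of 7 were lower in 16HBE-ex14 (KRT14, KRT17, KRT6A, KRT16) and 1 higher (KRT6B), against 4.88% of tested probes lower and 4.51% higher. With normexp the calls of KRT16 and KRT6B there were lost. With HGF in both genotypes KRT14, KRT17, KRT6A and KRT16 were lower and KRT15 and KRT6B were higher, against 5.52% and 5.32%. The median change of the 7 was 0.42 with HGF in 16HBE-ex14, beside 0.05 over all tested probes, -0.70 between the genotypes without HGF, beside -0.02, and -1.01 with HGF. In 16HBE-WT, HGF called 0 of these 7 members. Each of these comparisons shares a group of arrays with others, so their counts are not separate evidence. For the difference between the HGF responses of the genotypes, 0% of probes were called (1600 at an unadjusted p under 0.05) and 0 of the 7 members, with fitted differences of 1.07 for KRT6B, -0.62 for KRT17 and -0.47 for KRT14. A member that changed in 16HBE-ex14 and was not called in 16HBE-WT was thus not shown to respond differently.

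Genes listed as p63 targets were looked at beside TP63. Of 16 on the list, all tested, 3 fell with HGF in 16HBE-ex14 in the limma fit. Over all tested probes, 0.957% were called lower there and 1.05% higher. TRIM29, a tripartite motif protein, changed by -1.78 (adjusted p = 0.000155), and the growth factor receptors FGFR2 and FGFR3 by -1.34 (adjusted p = 0.00181) and -0.83 (adjusted p = 0.0291). PKP1, a desmosome plaque protein, rose by 0.66 (adjusted p = 0.0237), and 12 were not called. The calls of FGFR3 and PKP1 were lost with normexp, without a filter, with only the compared groups fitted, and without 16HBE-ex14 replicate 1, 2 or 4 or 16HBE-ex14+HGF replicate 3 or 4. That of FGFR3 was also lost with the array row as a block and without 16HBE-ex14+HGF replicate 2, and that of PKP1 with median scaling and without 16HBE-ex14+HGF replicate 1. Without HGF, the hemidesmosome collagen COL17A1 (-1.83), the cadherin FAT2 (-0.81) and the desmosome-associated PERP (-0.60) were lower in 16HBE-ex14 and FGFR2 was higher (1.16). The calls of FAT2 and PERP there were lost with normexp and with median scaling, that of FAT2 also with only the compared groups fitted and without 16HBE-WT replicate 1 or 16HBE-ex14 replicate 3, and that of PERP without 16HBE-WT replicate 4 or 16HBE-ex14 replicate 1. With HGF in both genotypes COL17A1, TRIM29, FAT2 and PERP were lower (-1.80, -1.71, -1.32 and -0.61) and none was higher, the call of PERP again lost with normexp and median scaling and without 16HBE-ex14+HGF replicate 2. Between the genotypes, 4.88% of all tested probes were called lower and 4.51% higher without HGF, and 5.52% and 5.32% with it. The median of the list was -0.15 with HGF in 16HBE-ex14, beside 0.05 over all tested probes. It was -0.12 between the genotypes without HGF, beside -0.02, and -0.28 with HGF, beside -0.004.

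Of 10 further airway basal genes, 8 were tested. The shares called over all tested probes are those given for the p63 targets. The membrane scaffold gene CAV1 fell with HGF in 16HBE-ex14, with a difference of -1.05 (adjusted p = 0.000196, limma), and the other 7 were not called. Among these, ITGA6 rose by 0.49 (adjusted p = 0.00632), short of the fold limit. Between the genotypes the water channel AQP3, the transcription factor SNAI2 and the tissue factor gene F3 were lower in 16HBE-ex14, at -1.81, -1.14 and -0.78 without HGF and at -1.95, -0.76 and -0.88 with it, and the calls of SNAI2 were lost with normexp. NGFR, a surface marker of basal cells, differed by -0.05 with HGF in 16HBE-ex14 (adjusted p = 0.964) and was not called. In 16HBE-WT, HGF called 0 genes of either list, the largest differences being TRIM29 (-0.62, adjusted p = 0.746) and FAT2 (0.39, adjusted p = 1) among p63 targets and CAV1 (-0.38, adjusted p = 0.808) and AQP3 (-0.30, adjusted p = 1) among basal genes.

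**Figure D4:**
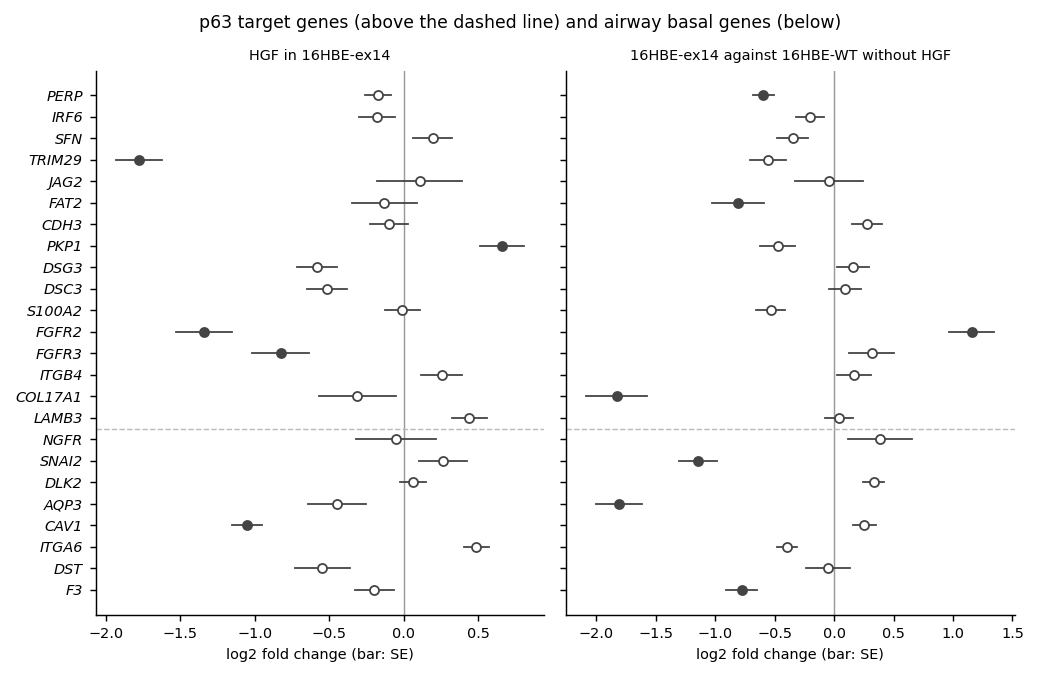
Log2 fold change with its SE for the 16 p63 target genes and the 8 tested airway basal genes, with HGF in 16HBE-ex14 on the left and between the genotypes without HGF on the right; filled points passed both thresholds. Calls lie on both sides of 0 among the p63 targets, and FGFR2 is lower on the left and higher on the right.

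Of 14 suprabasal and squamous genes 12 were tested. The share called was 16.7% with HGF in 16HBE-ex14, 25% between the genotypes without HGF and 16.7% with it. Over all tested probes it was 2%, 9.4% and 10.8%. With HGF in 16HBE-ex14, SPRR2A, a cornified envelope protein, rose by 0.99 (adjusted p = 0.018, limma) and TGM1, the enzyme that crosslinks that envelope, changed by -1.42 (adjusted p = 0.00051). Without HGF, SPRR1B (0.83) and TGM1 (0.67) were higher and SPRR2A (-0.88) lower in 16HBE-ex14, and with HGF SPRR1B (1.01) and SPRR3 (1.15) were higher. KRT1 and LOR were above background on no array.

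The simple epithelial keratins, those of single-layered epithelium, were looked at beside the basal ones. Of KRT7, KRT8, KRT18 and KRT19, 0 of 4 were called in any comparison, and KRT20 was above background on no array. With HGF in 16HBE-ex14 the largest differences were KRT8 (0.35, adjusted p = 0.304) and KRT7 (-0.16, adjusted p = 0.479). KRT19 was lower in 16HBE-ex14 without HGF at an adjusted p of 0.000426, but its difference of -0.58 fell just short of the fold limit. Of all 47 keratin genes on the array outside the members, the simple keratins included, 30 were tested. HGF in 16HBE-ex14 called 0 of them, while KRT222, KRT34 and KRT83 were lower in 16HBE-ex14 without HGF (-1.99, -0.77 and -0.72) and KRT222, KRT9 and KRT83 with it (-2.08, -0.84 and -0.66). In both genotype comparisons 10% of these keratins were called, near the 9.4% without HGF and 10.8% with it over all tested probes. Of the 8 genes that anchor keratin filaments to junctions, PPL was higher in 16HBE-ex14 without HGF (0.73, adjusted p = 0.00114, limma), or 12.5% of this list. No other call was made. With HGF in 16HBE-ex14 the largest differences were PPL (-0.50, adjusted p = 0.0509) and JUP (-0.40, adjusted p = 0.134).

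Among the genes whose levels most resembled those of KRT5 over the 16 arrays, of 26335 compared, were RNASET2 (r = 0.989), ENPP1 (0.987), CSPG4 (0.984), IGFBP3 (0.982), FXYD3 (0.980), PLA2G16 (0.979) and PSMB8 (0.978). These correlations follow the 4 steps between groups and describe the same arrays that KRT5 was picked from. Among the members, KRT17 (0.967), KRT14 (0.956) and KRT16 (0.913) came nearest, KRT6A was at 0.549, and KRT6B (-0.850) and KRT15 (-0.868) ran against KRT5.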

How the data were processed

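Values came from 16 single-colour Agilent arrays. The deposited intensity is what Agilent Feature Extraction 10.7.3.1 gave the authors for each spot after background subtraction and detrending, on a linear scale and with no scaling between arrays. The series table equals the array files in 1007616 of 1007616 cells (relative tolerance 1e-06). Control and outlier spots were dropped, each array's log2 values were set relative to its 75th percentile, and repeated spots were averaged per probe. limma 3.58.1 in R 4.3.3 fitted 1 mean per group over 16 arrays, with 5 contrasts and Benjamini-Hochberg adjustment within each, and was tested on simulated data. A gene is shown by its brightest tested probe. Groups follow the labels; titles of stimulated wild-type arrays abbreviate the genotype differently, so these follow genotype and description. Replicate numbers follow slide and row in accession order. Figures used Python 3.11.15 and matplotlib 3.10.9. The members, lists and alternatives were chosen with earlier results of these data known. Named genes are the members with every probe, MET, up to 4 called genes per direction of each list (otherwise its 2 largest differences), and the 8 genes most correlated with KRT5, of which 1 is not reported here; called cell type markers were named after their values were seen. Alternatives changed the background (normexp, offset 50), scaling, filter, outlier spots, blocks, prior, groups fitted, adjustment, fold limit, choice of probe, and left out each array.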

Additional observations from a re-analysis of the deposited data

Results flagged for a closer look

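In 3 of 32 groups of 4 arrays examined (8 genes in 4 groups), 1 array stood far from the other 3 relative to the range; chance alone marks about 1 group in 20. KRT14 in 16HBE-WT had its highest array at 2.49, against 1.61 to 1.70 on the others. KRT17 in 16HBE-ex14+HGF had its lowest array at -1.53, against -1.39 to -1.36 on the others. KRT6B in 16HBE-WT had its lowest array at -5.51, where all 4 arrays were not well above background.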

How the results depend on the processing

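Member counts moved by over 1.5 times in 2 cases. With normexp background, 3 members rather than 5 differed between the genotypes without HGF (KRT14, KRT17, KRT6A), and with adjustment over the 5 contrasts together 1 (KRT6B) was called for HGF in 16HBE-WT. For the p63-target and basal lists together, 5 genes (20.8%) were called for HGF in 16HBE-ex14, beside 2% of all tested probes. That count was 3 with normexp, without a filter and with only the compared groups, where CAV1, FGFR2 and TRIM29 remained each time, and it ran from 3 to 7 when an array was left out, at 3 without 16HBE-ex14 replicates 2 or 4 or 16HBE-ex14+HGF replicates 3 or 4. Between the genotypes without HGF the lists gave 7 (29.2%, beside 9.4% of all tested probes), which became 4 with normexp and 12 without a fold limit. Adjustment over the contrasts together called 1 list gene (TRIM29) for HGF in 16HBE-WT and 3 (CAV1, FGFR2, TRIM29) for the difference of the responses. Leaving out an array gave 2 to 3 members for HGF in 16HBE-ex14, 4 to 5 between the genotypes without HGF and 6 to 6 with HGF.

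With the array row as replicate block, 3 members were called for HGF in 16HBE-ex14, 5 and 6 between the genotypes without and with HGF, and 0 in the remaining contrasts; no member's call changed, and of the list genes FGFR3 lost its call for HGF in 16HBE-ex14. The numbers do not pair the arrays: arrays of the same row correlated in their deviations from the group means at 0.028 to 0.323, and arrays of the same slide but another row at 0.042 to 0.415. Arrays of another slide were at -0.356 to 0.028 (median -0.197, beside 0.205 for the same row and 0.212 for the same slide), so deviations went together within a slide. The slide as a block gave the same called members and list genes.

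The direction changed for KRT6B between the genotypes without HGF, at -0.082 with normexp, and for TP63, which was never called. TP63 was at -0.178 with normexp between the stimulated genotypes and at 0.071 with quantile and 0.069 with median scaling between the unstimulated ones. With an array left out it ran from -0.28 to 0.098 without HGF (0.014, 0.059 and 0.098 where the sign changed), from -0.090 to 0.14 with HGF (-0.065, -0.090, -0.018 and -0.028), and from -0.085 to 0.29 for the difference of the responses (-0.0014, -0.022, -0.047 and -0.085). For KRT5, normexp gave -1.49 with HGF in 16HBE-ex14. Scaling to the array median moved the median of all tested probes with HGF in 16HBE-ex14 from 0.05 to -0.11 and between the unstimulated genotypes from -0.02 to 0.12. The causes were not tested. Dim probes limit KRT6B, KRT6C and TP63 most.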
